A study of Caenorhabditis elegans with 11 samples.

Results

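The aspartyl proteases asp-1, asp-2, asp-3, asp-4, asp-5, asp-6, asp-12 and asp-14 of the nematode Caenorhabditis elegans are described here across 11 expression arrays of whole animals at the L4 larval stage. Members were taken as the probe sets, groups of array probes for 1 transcript, that the array's annotation gives to one of these 8 gene symbols. By this rule 7 of the 8 genes were measured, among 17118 genes on the array, with 10 probe sets in all. asp-4, asp-5 and asp-6 had 2 probe sets each, the other 4 had 1, and asp-2 had none under its own symbol. For a gene with 2 probe sets the brighter one is given first.

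The design set a strain with added copies of dbl-1 against a strain with a mutated receptor. DBL-1 is a ligand of the bone morphogenetic protein family, and SMA-6 is its type I receptor; the pathway sets body size and takes part in the defence against bacteria. BW1940 (5 arrays) carries the integrated transgene ctIs40, made from a cosmid with wild-type dbl-1 and a sur-5::gfp marker plasmid. LT186 (6 arrays) carries sma-6(wk7), an early stop codon described as a molecular null. No array of wild-type animals was analysed here, so a difference cannot be ascribed to one strain or the other.

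Aspartyl proteases of the cathepsin D and pepsin type cut proteins in acid compartments. In the worm they work chiefly in the intestine, which both digests bacteria and stores nutrients, and in lysosomes, where the V-ATPase proton pump supplies the acid. ASP-3 and ASP-4, together with the calpains CLP-1 and TRA-3, also take part in the necrotic death of neurons. ASP-1 is an enzyme of the intestinal cells. The genes lie on chromosome V (asp-1, asp-2, asp-5, asp-6 and asp-12) and chromosome X (asp-3, asp-4 and asp-14) in the WBcel235 annotation, which was used for names and gene order only.

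The values are intensities on a linear scale, with each array scaled to 100 by the authors. Array medians were 37.0 to 40.0 (BW1940) and 34.2 to 38.8 (LT186), and array means were 126 to 142 and 112 to 130. For the test 10 was added to each value and log2 was taken, and log2 fold changes above 0 are higher in BW1940. Differences were tested with limma over 18801 probe sets, and p-values were adjusted over all of them (Benjamini-Hochberg). A two-sided exact permutation test of each gene alone used the 462 ways to split the arrays into 5 and 6, and its p cannot be under 0.00216. Precision is limited by the number of arrays.

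Of the 7 genes, 6 had a higher mean in BW1940 and 1, asp-12, had a mean less than that of LT186 by a factor of 2.27. asp-14 passed the test as higher and asp-12 as lower, and 5 did not pass. Among all probe sets tested, 0.686% were called higher and 0.33% lower. At an unadjusted p under 0.05, 5 genes were higher and 1 lower, against 11.7% and 5.03% of all probe sets. In 3 genes every BW1940 array lay above every LT186 array, and in 1 every BW1940 array lay below, against 2.95% and 1.47% of all probe sets. Log2 fold changes had a median of 0.35 for the 7 genes and 0.08 for all probe sets, with 6 of the 7 genes and 60.7% of all probe sets above 0. All 7 genes were much brighter than the median probe set, and they were not compared with probe sets of like brightness. The small positive differences also depended on the scaling, as given below.

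**Figure D1:**
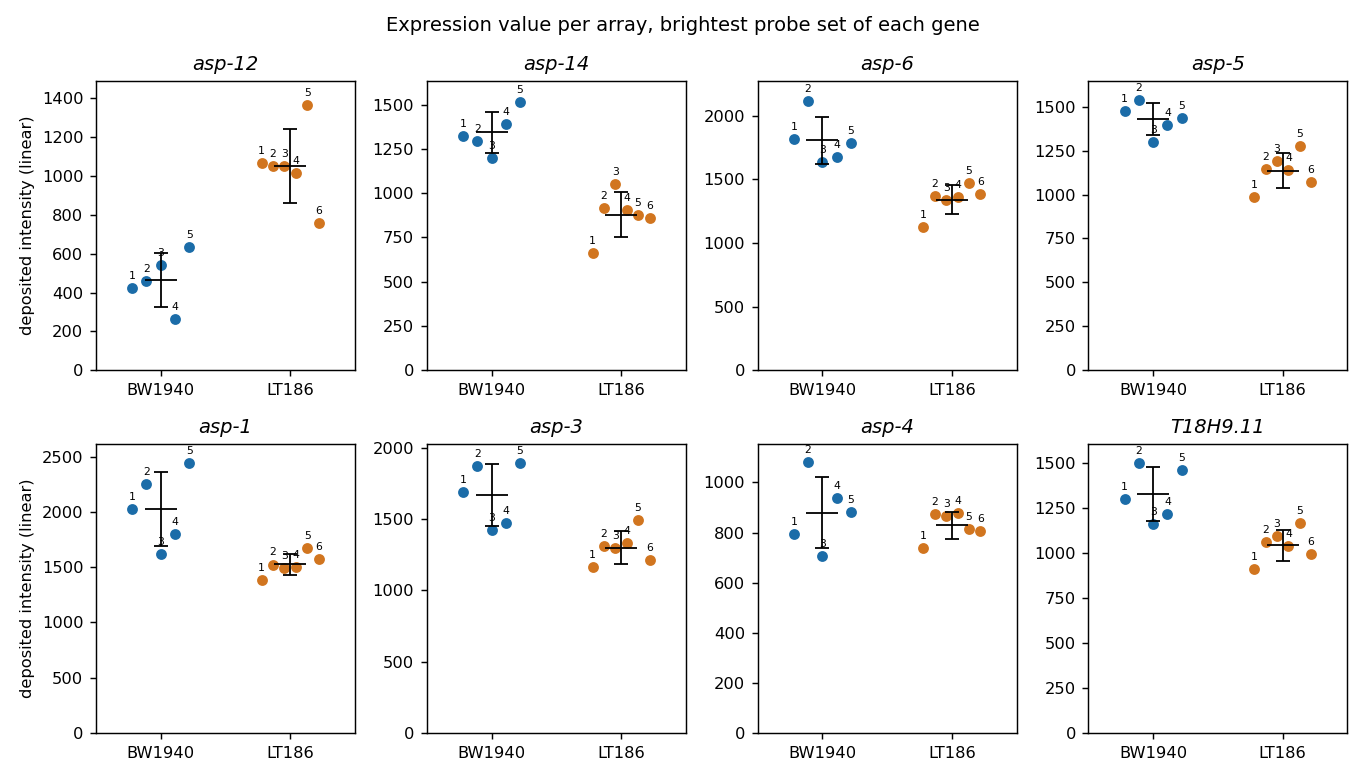
Deposited intensity (linear axis from 0) of the brightest probe set of each gene on every array, with points numbered by replicate, blue for BW1940 and orange for LT186, and bars for the mean ± SD. The arrays of asp-12 sit at 265 to 634 in BW1940 and 759 to 1363 in LT186, while those of asp-14, asp-6 and asp-5 are separated in the other direction and those of asp-4 overlap.

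asp-12 (F21F8.4), an aspartyl protease gene, was the member with the largest strain difference among these 7. Its BW1940 arrays gave 423, 457, 540, 265 and 634, and its LT186 arrays gave 1065, 1053, 1050, 1015, 1363 and 759. The lowest LT186 array, replicate 6, was above the highest BW1940 array, replicate 5, so the strains did not overlap. The means were 464 ± 138 (SD, n = 5) for BW1940 against 1051 ± 192 (SD, n = 6) for LT186, a 2.27-fold higher mean in LT186. The log2 fold change was -1.198 (standard error, SE, 0.21, 95% interval -1.66 to -0.73, adjusted p = 0.0248 by limma), and the exact permutation test gave p = 0.00216, the smallest it can give. asp-12 was also the most variable member between arrays of one strain, with a coefficient of variation of 29.7% in BW1940 and 18.3% in LT186. The call was lost when any 1 of 7 arrays was left out, with an adjusted p of up to 0.0687 by limma. The log2 fold change stayed between -1.32 and -1.02 over the 11 arrays left out in turn. The study also measured F21F8.4 by quantitative PCR in these strains, and reports it lower in BW1940 there too.

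asp-14 (K10C2.3), the member that passed as higher in BW1940, is a further gene of the aspartyl protease family, on chromosome X. BW1940 arrays gave 1324, 1296, 1201, 1389 and 1513, and LT186 arrays gave 663, 918, 1050, 906, 879 and 859. LT186 replicate 1 was the lowest of all, and the highest LT186 array, replicate 3, stayed under the lowest BW1940 array. The means were 1345 ± 116 (SD, n = 5) against 879 ± 125 (SD, n = 6), a ratio of 1.53. The log2 fold change was 0.62 (SE 0.13, 95% interval 0.34 to 0.89, adjusted p = 0.0458 by limma), with p = 0.00216 by the exact permutation test. This call lay close to the threshold, and leaving out any 1 of the 11 arrays ended it. The adjusted p by limma was then 0.0519 to 0.106, and the log2 fold change was 0.54 to 0.67.

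asp-6 (F21F8.7) and asp-5 (F21F8.3) lie on either side of asp-12, and their brighter probe sets separated the strains without passing the test over all probe sets. For asp-6 the brighter probe set gave 1815, 2114, 1637, 1674 and 1786 in BW1940 and 1123, 1371, 1337, 1357, 1472 and 1385 in LT186. The strains did not overlap, with a ratio of means of 1.35, a log2 fold change of 0.43 (SE 0.11, adjusted p = 0.0970 by limma) and p = 0.00216 by the exact permutation test. The dimmer asp-6 probe set gave 1349 ± 107 (SD, n = 5) against 1110 ± 112 (SD, n = 6), a log2 fold change of 0.28 (adjusted p = 0.225 by limma), and its strains overlapped.

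For asp-5 the brighter probe set gave 1476, 1540, 1301, 1396 and 1436 in BW1940 and 985, 1148, 1192, 1142, 1275 and 1069 in LT186. All 5 BW1940 arrays were above all 6 LT186 arrays, by a narrow margin between BW1940 replicate 3 and LT186 replicate 5. The ratio of means was 1.26 and the log2 fold change 0.33 (SE 0.10, adjusted p = 0.145 by limma; exact permutation p = 0.00433). The second asp-5 probe set, nearly as bright, gave 1431 ± 76.2 (SD, n = 5) against 1114 ± 49.0 (SD, n = 6), again without overlap, and a log2 fold change of 0.36 (adjusted p = 0.0907 by limma; exact permutation p = 0.00216).

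asp-1 (Y39B6A.20), the intestinal protease, gave 2024, 2254, 1617, 1797 and 2441 in BW1940 and 1384, 1525, 1497, 1501, 1670 and 1578 in LT186. BW1940 replicate 3 fell below LT186 replicate 5, so the strains overlapped by this 1 pair of arrays. The means were 2026 ± 333 (SD, n = 5) against 1526 ± 95.0 (SD, n = 6), a ratio of 1.33, with a log2 fold change of 0.39 (SE 0.12, adjusted p = 0.153 by limma; exact permutation p = 0.00433). The spread between arrays was wider in BW1940, with a coefficient of variation of 16.4% against 6.23% in LT186.

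asp-3 (H22K11.1) and asp-4 (R12H7.2) encode the cathepsin D-like enzymes that also act in necrotic neurons. asp-3 gave 1688, 1870, 1422, 1470 and 1894 in BW1940 and 1162, 1308, 1293, 1331, 1490 and 1212 in LT186. LT186 replicate 5 lay above BW1940 replicates 3 and 4, and the other arrays were separated. The ratio of means was 1.28 and the log2 fold change 0.35 (SE 0.12, adjusted p = 0.170 by limma; exact permutation p = 0.00866).

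asp-4 was the member with the smallest strain difference. It gave 793, 1081, 708, 936 and 882 in BW1940 and 738, 874, 866, 876, 813 and 807 in LT186, with the LT186 arrays all inside the BW1940 range. The log2 fold change was 0.07 (95% interval -0.19 to 0.34, adjusted p = 0.850 by limma; exact permutation p = 0.511). The upper end of this interval lies above the value of asp-5, so the test does not show that the strains were alike. Its second probe set gave 676 ± 57.6 (SD, n = 5) against 650 ± 82.4 (SD, n = 6) and a log2 fold change of 0.06 (adjusted p = 0.879 by limma).

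asp-2 (T18H9.2), the eighth listed gene, has no probe set under its symbol and is therefore not counted. A probe set annotated to T18H9.11, a pseudogene next to asp-2, is the 1 probe set whose group means match the entry for asp-2 in the study's own gene table, and which of the transcripts it reads was not tested. It gave 1302, 1503, 1162, 1219 and 1464 in BW1940 and 913, 1065, 1094, 1038, 1166 and 997 in LT186. Its arrays overlapped only through BW1940 replicate 3 and LT186 replicate 5, with a log2 fold change of 0.34 (SE 0.11, adjusted p = 0.163 by limma; exact permutation p = 0.00649).

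**Figure D2:**
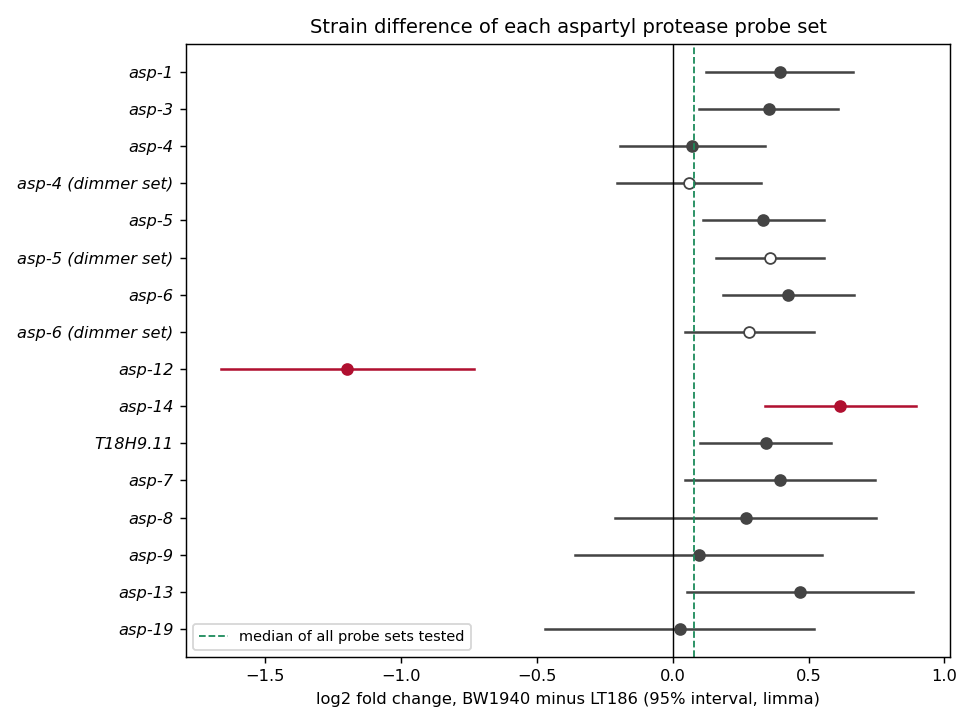
Log2 fold change (BW1940 minus LT186) with its 95% interval from limma for each probe set of the listed genes, for T18H9.11 and for the 5 other aspartyl protease genes tested, with open circles for a gene's dimmer probe set, red for an adjusted p under 0.05 and a dashed line at the median of all probe sets, 0.08. asp-12 at -1.198 lies alone on the left, asp-14 at 0.62 is the highest, and most others lie between 0 and 0.5.

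The size of the difference between asp-12 and its neighbours was measured within each array, where the scaling of the array drops out. In the annotation asp-6, asp-12, asp-5 and the pseudogene asp-11 follow each other on chromosome V with no other gene listed between them. The log2 value of asp-6 exceeded that of asp-12 by 1.99 ± 0.46 (SD, n = 5) for BW1940 against 0.36 ± 0.28 (SD, n = 6) for LT186. The strains did not overlap, with a range of 1.48 to 2.61 against 0.08 to 0.86, and the difference between strains was 1.62 (exact permutation p = 0.00216, adjusted p = 0.00325 over 3 pairs). For asp-5 and asp-12 the same quantity was 1.66 ± 0.48 (SD, n = 5) against 0.13 ± 0.22 (SD, n = 6), a difference of 1.53 with the same exact permutation p and adjusted p. Because each of these genes separated the strains on its own, in opposite directions, the separation of their difference and its smallest possible p follow from that and are no further evidence. The differences give a size only, and they set no level of one gene against another.

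For asp-6 and asp-5 the strains were closer and overlapped. Their within-array difference was 0.33 ± 0.07 (SD, n = 5) for BW1940 against 0.24 ± 0.07 (SD, n = 6) for LT186, and the difference of 0.09 did not pass (exact permutation p = 0.0671, adjusted p = 0.0671). Without BW1940 replicate 4 it was 0.11 (exact permutation, adjusted p = 0.0476), and without LT186 replicate 6 it was 0.12 (exact permutation, adjusted p = 0.00794). These values are of the brighter probe sets. The dimmer asp-6 probe set had a log2 fold change of 0.28, below the 0.33 and 0.36 of the asp-5 probe sets. Which of asp-6 and asp-5 differed more between the strains therefore depends on the probe set. asp-11 was near 0 on all arrays, at -0.49 to 4.73 (BW1940) and 0.20 to 2.76 (LT186), and was not tested. The probe sets of asp-4, asp-6 and asp-14 and the brighter one of asp-5 are of a kind whose probes can match more than 1 similar transcript, so that signal of close relatives cannot be fully separated there. Those of asp-1, asp-3 and asp-12 are not of that kind.

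**Figure D3:**
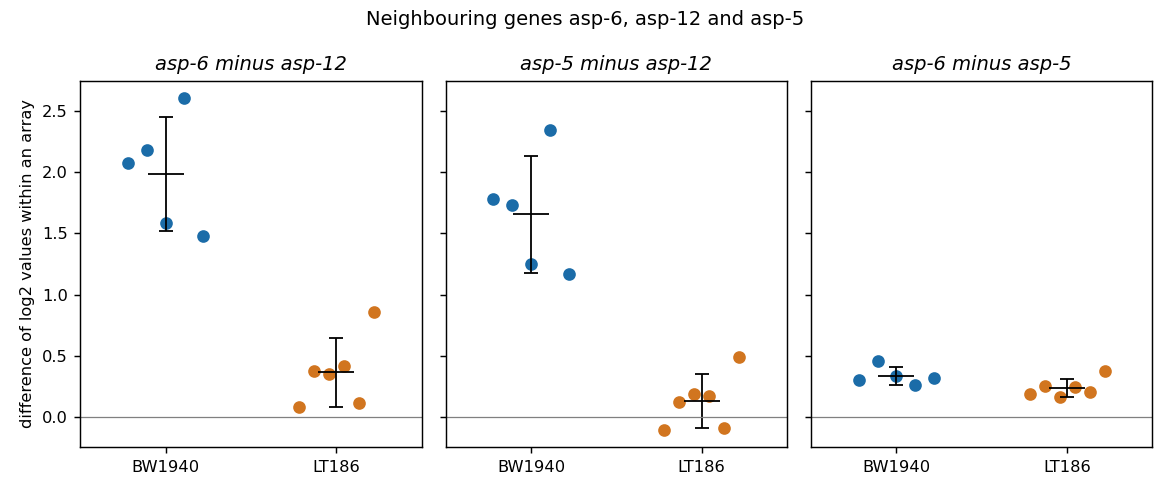
Difference of log2 values between 2 neighbouring genes within each array, for asp-6 minus asp-12, asp-5 minus asp-12 and asp-6 minus asp-5, with blue points for BW1940, orange points for LT186 and bars for the mean ± SD. The first 2 differences separate the strains, with means of 1.99 against 0.36 and 1.66 against 0.13, and the third, 0.33 against 0.24, overlaps.

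Within the strains, the arrays on which one protease was high tended to be high for the others, and less so for asp-12. With the mean of each strain removed, the log2 values of the 15 pairs of members without asp-12 correlated with Pearson's r from 0.46 to 0.91 (median 0.64) over the 11 arrays. The 6 pairs with asp-12 gave r from -0.22 to 0.54 (median 0.19). Among asp-1, asp-3, asp-5 and asp-6 the 6 pairs gave r from 0.64 to 0.91 (median 0.80), the highest for asp-1 with asp-3. All values of an array share its RNA and its scaling, so these correlations are a description only.

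The genes most like each member over the 11 arrays, among 14296 other genes, fell into different kinds. asp-1 was closest to rpl-15, a ribosomal protein gene (r = 0.985), the mitochondrial ND4 (0.984) and the cuticle collagen dpy-2 (0.981). asp-3 was closest to the ribosomal genes rplp-1 (0.988) and rps-20 (0.987) and to atp-2 of the mitochondrial ATP synthase (0.987). asp-6 resembled atp-3, rps-7 and moma-1 (0.975, 0.968 and 0.966), which are likewise genes of mitochondria and ribosomes. asp-5 resembled Y32F6A.5, K12C11.1 and C35B1.5 (0.970, 0.969 and 0.967), of which the first 2 were called higher in BW1940, with log2 fold changes of 0.58 and 0.52 (adjusted p = 0.0489 and 0.0437 by limma). None of the genes named for asp-1, asp-3 and asp-6 passed.

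asp-12 was closest to vkmt-1 (0.973), C42C1.19 (0.956) and marb-1 (0.950), all 3 on chromosome IV and themselves called lower in BW1940, with log2 fold changes of -1.09, -1.096 and -0.92 (adjusted p = 0.0164, 0.00513 and 0.0174 by limma). asp-14 was closest to hprt-1, a purine salvage enzyme (0.985), to ugt-22, a glucuronosyltransferase gene (0.979), and to pes-9 (0.974). Of these pes-9 passed the test, with a log2 fold change of 0.69 (adjusted p = 0.0164 by limma). asp-4 had the weakest likeness, to ugt-50 (0.927), the glutathione transferase gst-4 (0.876) and ttr-48 (0.864). The strain difference is part of these correlations, so calls among the genes closest to asp-5, asp-12 and asp-14 follow in part from how they were picked.

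None of the remaining aspartyl protease genes passed limma's test. Of 8 others on the array, 5 were tested, all 5 with a log2 fold change above 0 and a median of 0.27. Among these 5, asp-19, given for its low signal and not for its p, had means of 7.69 (BW1940) and 6.74 (LT186). Its log2 fold change was 0.03. Of all probe sets 60.7% were above 0, with a median of 0.08. asp-13 gave 574 ± 161 (SD, n = 5) for BW1940 against 408 ± 79.6 (SD, n = 6) for LT186, a log2 fold change of 0.47 (adjusted p = 0.247 by limma). asp-7 gave 56.8 ± 12.8 (SD, n = 5) against 40.8 ± 9.27 (SD, n = 6), a log2 fold change of 0.39 (adjusted p = 0.245 by limma). These 2 had an unadjusted p under 0.05, as did 11.7% of all probe sets in that direction. The third smallest p was that of asp-8, with a log2 fold change of 0.27 (adjusted p = 0.617 by limma). asp-11, asp-15 and asp-17 did not reach the level required for the test.

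Other digestive and lysosomal proteases were mostly on the same side as asp-1, asp-3, asp-5 and asp-6. Of 24 genes for lysosomal cysteine and serine proteases, 20 had a log2 fold change above 0, with a median of 0.41. Of all probe sets 60.7% were above 0, with a median of 0.08. In the list 1 passed as higher and 0 as lower, against 0.686% and 0.33% of all probe sets. At an unadjusted p under 0.05, 10 were higher and 0 lower, against 11.7% and 5.03%. The gene that passed was pcp-3, a prolyl carboxypeptidase-like serine protease gene, with 495 ± 38.1 (SD, n = 5) for BW1940 against 247 ± 79.3 (SD, n = 6) for LT186 and a log2 fold change of 1.02 (SE 0.19, adjusted p = 0.0291 by limma). cpz-2, a cathepsin Z gene, had a log2 fold change of 0.60, and the cathepsin A-like genes ctsa-3.1 and ctsa-2 had 0.66 and 0.54 (adjusted p = 0.0675, 0.0770 and 0.0882 by limma).

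The V-ATPase, the pump that acidifies the compartments in which these enzymes work, had 16 of 19 genes above 0 and a median log2 fold change of 0.29, with 0 called by limma in either direction and 12 higher and 0 lower at an unadjusted p under 0.05. vha-6, the membrane subunit of the intestine, gave 877 ± 38.7 (SD, n = 5) against 588 ± 106 (SD, n = 6), a log2 fold change of 0.59 (adjusted p = 0.0708 by limma). vha-14, vha-12 and vha-8, subunits of the part of the pump that splits ATP or its stalk, had 0.41, 0.35 and 0.35 (adjusted p = 0.115, 0.185 and 0.184 by limma). Of all probe sets, 60.7% were above 0, with a median of 0.08, and 0.686% were called higher and 0.33% lower. At an unadjusted p under 0.05, 11.7% of all probe sets were higher and 5.03% lower. The V-ATPase genes were all brighter than the median probe set, and no list was compared with probe sets of like brightness. After quantile normalization the median of the V-ATPase list was 0.03. Genes of lysosome biogenesis and membrane had 15 of 24 log2 fold changes above 0 and a median of 0.09, both close to all probe sets. Of these genes 1 was called higher and 0 lower, and 4 were higher and 0 lower at an unadjusted p under 0.05. Among them cln-3.3, a homolog of the human Batten disease gene CLN3, passed as higher, with 143 ± 43.5 (SD, n = 5) against 66.6 ± 11.8 (SD, n = 6) and a log2 fold change of 0.97 (adjusted p = 0.0353 by limma). The lysosomal nuclease nuc-1 (0.65), the lysine and arginine transporter laat-1 (0.65) and the membrane protein lmp-1 (0.40) did not pass (adjusted p = 0.154, 0.167 and 0.198 by limma).

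The genes listed for necrosis, counted alike whatever their part in it, had 7 of 10 log2 fold changes above 0 and a median of 0.12, and 0 passed. The calpain tra-3 had 0.70 and clp-1 had -0.02, and the calcium-binding chaperone crt-1 had 0.40 (adjusted p = 0.112, 0.974 and 0.168 by limma). clp-1 was named here for its place beside asp-3 and asp-4 and not for its p. The unadjusted p was under 0.05 for 4 higher genes and 0 lower ones, against 11.7% and 5.03% of all probe sets. Of all probe sets 60.7% were above 0, with a median of 0.08, and 0.686% were called higher and 0.33% lower. Some genes stand on more than 1 list. Of those with an unadjusted p under 0.05 here, vha-12 and unc-32 were counted in the V-ATPase list as well.

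**Figure D4:**
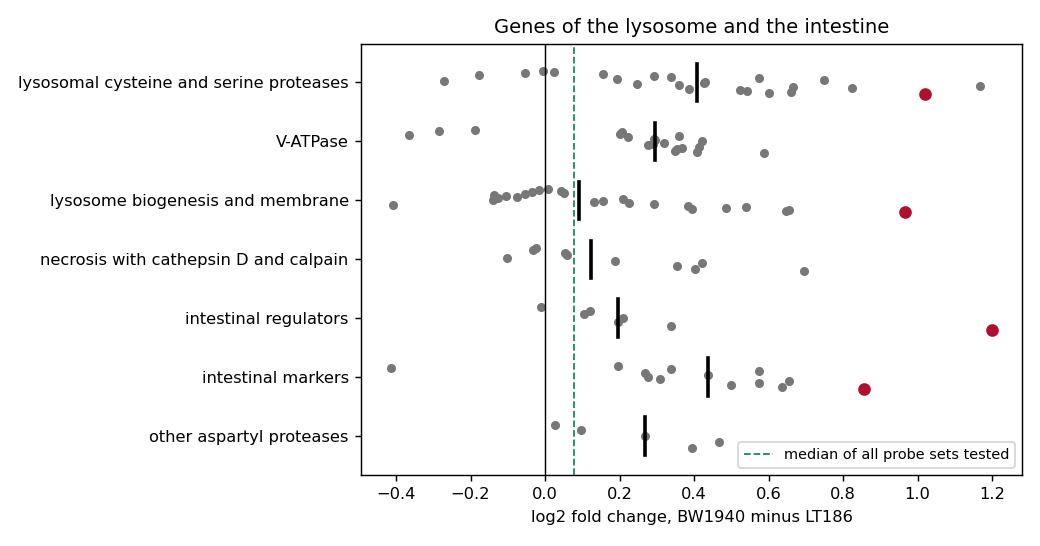
Log2 fold change (BW1940 minus LT186) of each tested gene of 7 gene lists, with a black bar for the list's median, red for an adjusted p under 0.05 by limma and a dashed line for the median of all probe sets, 0.08. Medians run from 0.09 for lysosome biogenesis and membrane to 0.44 for the intestinal markers, and 4 genes are red.

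The summed level of intestinal markers separated the strains. Of 13 markers of the intestine, 12 had a log2 fold change above 0 (median 0.44), and 0 of the 13 were at 0 on all arrays. Of all probe sets 60.7% were above 0 (median 0.08). Among the markers 1 passed as higher and 0 as lower, against 0.686% and 0.33% of all probe sets. The sum of the markers was 8391 to 9805 on the BW1940 arrays and 5633 to 7524 on the LT186 arrays, without overlap. Sums of the cysteine and serine proteases (16363 to 21258 against 11858 to 14744), the V-ATPase (14904 to 17717 against 10980 to 14838) and the lysosome biogenesis and membrane genes (3638 to 4132 against 2709 to 3516) were likewise separated. Those of the necrosis genes (5067 to 6908 against 3987 to 5530) and the intestinal regulators (1187 to 1650 against 826 to 1313) overlapped. The sums of the other aspartyl proteases (687 to 1036 against 473 to 689) and of every marker list of another tissue overlapped too. Such linear sums follow the brightest genes. In the lysosome biogenesis and membrane list these were lmp-1 (mean 956 in BW1940 and 733 in LT186) and nuc-1 (884 and 572). The median log2 fold change of that list was 0.09, against 0.08 for all probe sets. By the mean log2 value of the tested genes, the V-ATPase (9.43 to 9.65 against 9.07 to 9.46) overlapped between the strains. So did the lysosome biogenesis and membrane genes (6.69 to 6.88 against 6.46 to 6.77). The intestinal markers (8.79 to 8.92 against 8.31 to 8.67) and the cysteine and serine proteases (8.77 to 8.94 against 8.27 to 8.59) did not overlap by it. Array means ran from 126 to 142 in BW1940 and 112 to 130 in LT186, and sums under another scaling were not taken. pho-1, an acid phosphatase of the gut, passed with 562 ± 54.7 (SD, n = 5) against 308 ± 44.3 (SD, n = 6) and a log2 fold change of 0.86 (adjusted p = 0.00986 by limma). ges-1, the gut esterase, act-5, the actin of the microvilli, and ifb-2, a filament protein of the gut, had 0.64, 0.50 and 0.57 (adjusted p = 0.0524, 0.0546 and 0.187 by limma). The arrays measured RNA of whole animals, in which more cells of a type and more RNA per cell cannot be told apart by the arrays alone (the study holds that the pathway leaves somatic cell number as it is), and the part of these markers in the values of the proteases was not tested.

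Among 7 tested regulators of intestinal genes, 6 were above 0 and the median was 0.20. Of all probe sets 60.7% were above 0, with a median of 0.08, and 0.686% were called higher. pqm-1, a zinc finger transcription factor, passed as higher, with 339 ± 69.3 (SD, n = 5) against 141 ± 21.1 (SD, n = 6) and a log2 fold change of 1.201 (SE 0.16, adjusted p = 0.00471 by limma). The GATA factors of the gut, elt-2 and elt-7, gave 0.20 and 0.34 (adjusted p = 0.664 and 0.519 by limma).

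Markers of other tissues had medians on both sides of 0. The median log2 fold change was 0.40 for 8 genes of the hypodermis and 0.26 for 6 of body muscle. It was 0.17 for 6 of the pharynx, 0.12 for 6 of neurons and -0.44 for 10 of oocytes and germ line. In these lists 0 were called by limma, and 5 genes were higher and 3 lower at an unadjusted p under 0.05. At that level 11.7% of all probe sets were higher and 5.03% lower, and 0.686% were called higher and 0.33% lower. The 42 sperm markers, 0 of them called, varied widely within both strains, with sums of 12650 to 46635 on BW1940 arrays and 2235 to 52359 on LT186 arrays and a median of 0.58. LT186 replicates 2 and 4, the arrays with the fewest sperm transcripts, were also the most alike of all pairs (median absolute log2 difference 0.114, against 0.180 for the next pair), and were kept separate as labelled. With the mean log2 value of the sperm markers as a covariate both calls were kept, at -1.19 for asp-12 and 0.62 for asp-14 (adjusted p = 0.0109 and 0.0166 by limma). Without BW1940 replicate 1 and LT186 replicates 2 and 4, which were low in sperm transcripts, neither passed, at -1.18 and 0.65 (adjusted p = 0.107 and 0.124 by limma).

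The small positive differences depended on how the arrays were scaled, and the direction and call of asp-12 were kept under both scalings tried. After quantile normalization, which gives all arrays the same distribution of values, the log2 fold changes of asp-1, asp-3, asp-5 and asp-6 fell to 0.06, 0.03, 0.02 and 0.09, that of T18H9.11 to 0.04, and that of asp-4 turned to -0.20 (adjusted p = 0.527 by limma). asp-14 remained positive at 0.33 but no longer passed (adjusted p = 0.250 by limma). asp-12 was then at -1.41 (adjusted p = 0.00645 by limma). With each array centred on its median, asp-1, asp-3, asp-5 and asp-6 stayed at 0.37, 0.33, 0.31 and 0.40, and asp-14 was at 0.59 (adjusted p = 0.0682 by limma) and asp-12 at -1.22 (adjusted p = 0.0276 by limma). The lists moved unequally. After quantile normalization the median fell to 0.19 for the cysteine and serine proteases, 0.03 for the V-ATPase, 0.02 for the necrosis genes and 0.24 for the intestinal markers. It was 0.27 for the other aspartyl proteases, 0.19 for the intestinal regulators and 0.06 for lysosome biogenesis and membrane, close to the values as deposited (0.27, 0.20 and 0.09). Over all probe sets the median was 0.0028 after quantile normalization and 0.05 after centring.

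**Figure D5:**
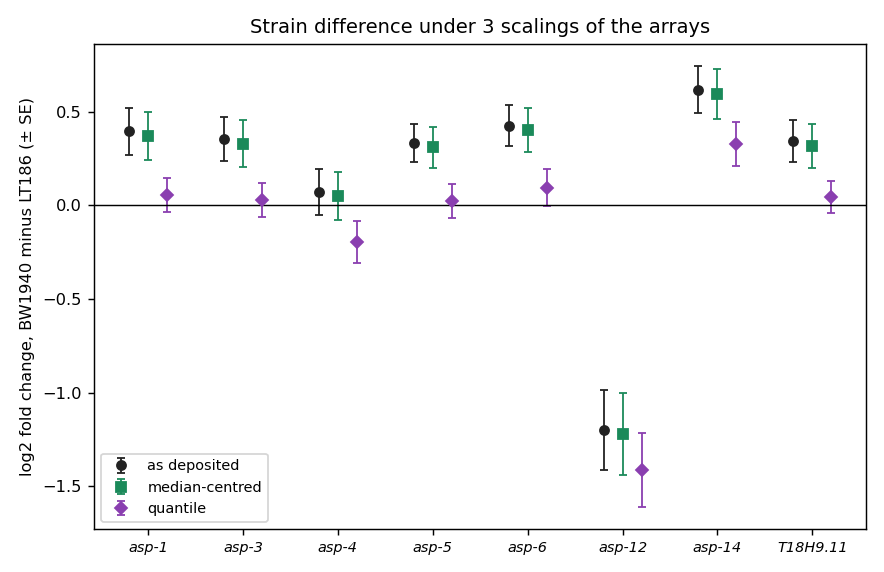
Log2 fold change (BW1940 minus LT186) ± standard error (SE) from limma for each gene's brightest probe set, with the values as deposited (black circles), with each array centred on its median (green squares) and after quantile normalization (purple diamonds). asp-12 stays between -1.41 and -1.198, and with quantile normalization asp-14 drops from 0.62 to 0.33 and the other genes drop to between -0.20 and 0.09.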

How the data were processed

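RNA of L4 animals was hybridized to Affymetrix C. elegans arrays, and each array was labelled a biological replicate; where cultures were not separate, p-values measure only the spread between samples. The deposited values are intensities that the authors made with Microarray Suite 5 and Probe Profiler 1.3.11, with global scaling to 100. No further normalization was applied. Negative values were taken as 0, 10 was added and log2 was taken, which understates changes of dim genes. Of 22548 probe sets, 18801 reached 10 on at least 2 of 11 arrays and were tested with limma 3.58.1 (lmFit, eBayes; R 4.3.3), unblocked, at an adjusted p of 0.05. The steps were tested on simulated data. Permutation tests used Python 3.11.15 with numpy 2.4.6 and pandas 2.3.3. Ratios are of linear means.

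The annotation gave 1 gene symbol to 20766 probe sets, of which 20701 matched the WBcel235 gene table. Probe sets with several symbols (887) or no symbol (895) named no gene, and none of the former includes a listed gene. Named genes were all members, up to 3 other asp genes, the 3 genes most correlated with each member, and up to 4 of each list, those past the test first and then by p. Members, lists and alternatives were chosen with earlier results of these data known. Alternatives were the offset, filter, scaling, threshold, replicate block, array weights, an ordinary t-test (equal variance), LT186 replicates 2 and 4 averaged, the sperm score, other probe sets and each array left out. The ordinary t-test used the same log2 values and adjustment. It is not the modified t-test of the study, which was not run here. Sequences, image files and detection calls were not analysed here.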

Additional observations from a re-analysis of the deposited data

Results flagged for a closer look

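Among 28 groups of arrays, 2 held an array far from the rest, and chance alone gives about 1 group in 20. Gaps and ranges were taken on the log2 scale of the test, with 10 added. For the dimmer asp-4 probe set, BW1940 replicate 3 (577) lay below the other BW1940 arrays (684 to 727), with a gap of 0.737 of the log2 range of the group, against a limit of 0.710 for 5 arrays. For the brighter asp-6 probe set, LT186 replicate 1 (1123) lay below the other LT186 arrays (1337 to 1472), with a gap of 0.645 of the log2 range, against a limit of 0.625 for 6 arrays. Without LT186 replicate 1 the log2 fold change of asp-6 was 0.38 (adjusted p = 0.183 by limma), and with all arrays it was 0.43.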

How the results depend on the processing

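Of the 7 genes, 2 passed as given. The count was 1 with an offset of 1, with quantile normalization, with centring and with LT186 replicates 2 and 4 averaged. It was 0 without the arrays of low sperm score and at a threshold of 0.01, and from 0 to 1 with single arrays left out. With an ordinary equal-variance t-test it was 4 (asp-5 and asp-6 added). asp-12 kept its direction in all 23 settings (-1.41 to -1.02), with the call lost in 9, and asp-14 in all 23 (0.33 to 0.67), with the call lost in 17. Only asp-4 changed sign, to -0.20 with quantile normalization and to -0.0044 without BW1940 replicate 2, and it was at most 0.15 with single arrays left out. asp-6 passed in 4 settings and asp-5 in 1.

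Over all probe sets, 191 passed, and 366 with an offset of 50, 416 without a filter, 381 with the ordinary t-test and 443 with array weights. With the sperm score as a covariate 1616 passed, and 88 without the arrays of low sperm score. At 0.01 it was 59, and with single arrays left out 77 to 151. The cause of these shifts was not tested. Leaving out single arrays gave 1.47 to 1.75 for asp-6 against asp-12, 1.36 to 1.65 for asp-5 against asp-12 and 0.062 to 0.12 for asp-6 against asp-5.

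The replicate numbers gave no pairing: deviations of the 5 same-numbered pairs correlated from -0.69 to 0.10, and 0 of 5 correlated best with its own number. With the replicate number as a block, 5 probe sets and 0 of the 7 genes passed, and the differences were 1.72 for asp-6 against asp-12 and 1.60 for asp-5 against asp-12, each with an adjusted p of 0.0625 by an exact permutation test of 5 pairs, the smallest that this design can give, so it could not pass.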
